A study of Mus musculus with 12 samples.

Results

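The mitochondrial carrier family was followed here through the genes whose symbol is Slc25a and a number. The rule used symbols alone and no measured value. It took in 47 of the 48321 genes of the table, of which 37 reached 10 normalized counts in 3 or more of the 12 libraries and were tested. The other 10 were too low to test and are described at the end.

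Mitochondrial carriers are nuclear-encoded proteins, most of which sit in the inner mitochondrial membrane. They are built from repeats of a membrane-spanning module and pass metabolites between cytosol and matrix by opening to one side at a time. They supply oxidative phosphorylation with ADP and phosphate, exchange citrate, malate and other acids for lipid synthesis and redox shuttles, and import coenzymes. In brown adipose tissue the family is best known through uncoupling protein Ucp1, whose symbol lies outside the rule and whose values are given beside the members below.

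Bulk RNA-seq was made from immortalized brown adipocytes, which descend from interscapular brown preadipocytes of wild-type C57BL/6J mice transformed with SV40 large T antigen. The study's methods name a single newborn animal as their source, while the series' design speaks of mice. All libraries shared this origin, puromycin selection after transduction with a pLEX lentivirus, differentiation until day 8 and a last 6 h in medium without serum. The virus carried either no insert (vector) or the Flag-tagged cDNA of a truncated, soluble form of Sema4B (tSema4B), a member of the semaphorin family of guidance and signalling proteins. Cells were left unstimulated or received 2 µM norepinephrine (NE), the adrenergic agonist released by sympathetic nerves, for those 6 h. The 4 groups were therefore vector unstimulated, tSema4B unstimulated, vector with NE and tSema4B with NE, each with 3 libraries. Each construct was carried by 1 selected line, and the design describes replication within a group as technical, so the p-values below measure the spread between such replicates. The effect of tSema4B and any other difference between the 2 selected lines cannot be told apart.

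Before stimulation, recovered reads per library ranged from 2841941 to 3682634 for vector and from 2000780 to 2541747 for tSema4B cells. With NE they ranged from 4739777 to 5409583 for vector and from 2307190 to 3144946 for tSema4B cells. Sema4b normalized counts ranged from 258257 to 316850 in unstimulated tSema4B cells against 110786 to 124008 in vector cells, and from 208760 to 270694 against 65473 to 81754 with NE. Sema4b was thus also abundant in the vector libraries, whose virus carried no insert. There the adipocyte marker Fabp4 averaged 24034 unstimulated and 40898 with NE. The source of these Sema4b reads was not tested. All 9 adipocyte markers (among them Adipoq, Pparg and Plin1) were lower in tSema4B cells in both states. Their summed level was 34692 to 38790 in unstimulated vector libraries, 5895 to 8432 in unstimulated tSema4B libraries, 48554 to 61029 in vector libraries with NE and 10070 to 11573 in tSema4B libraries with NE. Of the 9 tested preadipocyte and fibroblast markers, 7 were higher in unstimulated tSema4B cells and 8 with NE. The summed level of all 10 listed was 30006 to 34177 against 15975 to 16735 unstimulated and 28161 to 29942 against 13060 to 15250 with NE. Of the 6 tested brown adipocyte markers, Cidea, Cox7a1, Elovl3 and Ucp1 were lower in tSema4B cells in both states, and Dio2 was at 0 in every library. Macrophage markers summed to at most 24.6 and endothelial markers to at most 21.9 normalized counts in any library, with Adgre1, Ptprc and Kdr at 0. These marker differences accompany each comparison of tSema4B with vector below, and their part in the results was not tested. In bulk samples, fewer cells of a type and less RNA per cell cannot be told apart.

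The sequences before the start sites of 3 members are shown from RefSeq (GRCm38.p6), since their genes carry motifs searched for in the first 250 bases before each listed start. Slc25a25 and Slc25a36 were the members whose windows held the full cAMP response element TGACGTCA, a binding site of transcription factors that act downstream of adrenergic receptors. Slc25a5, the member with the highest level per kb in vector cells, held 1 GC box (GGGCGG on either strand), here read as its reverse complement. Sequences run 5′ to 3′ on the strand of the gene, the motif is in capitals, and bases of annotated exons were left out. They lie at chr2:32424067-32424316 on the minus strand for Slc25a25 (one of its alternative starts), chr9:97111158-97111291 on the minus strand for Slc25a36 and chrX:36795347-36795596 on the plus strand for Slc25a5.
Slc25a25: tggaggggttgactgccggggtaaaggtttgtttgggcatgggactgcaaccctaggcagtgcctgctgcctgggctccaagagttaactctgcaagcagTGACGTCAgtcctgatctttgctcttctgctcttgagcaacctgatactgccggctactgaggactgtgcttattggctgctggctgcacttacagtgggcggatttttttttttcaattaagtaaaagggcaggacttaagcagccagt
Slc25a36: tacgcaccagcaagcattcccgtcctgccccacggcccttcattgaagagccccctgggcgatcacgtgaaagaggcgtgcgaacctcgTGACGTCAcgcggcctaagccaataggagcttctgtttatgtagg
Slc25a5: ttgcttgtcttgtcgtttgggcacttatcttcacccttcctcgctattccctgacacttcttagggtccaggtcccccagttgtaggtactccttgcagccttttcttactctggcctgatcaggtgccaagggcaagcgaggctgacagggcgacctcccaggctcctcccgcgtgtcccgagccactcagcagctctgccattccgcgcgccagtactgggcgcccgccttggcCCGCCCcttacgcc

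The match began 150 bases before the RefSeq start in Slc25a25, 161 bases in Slc25a36 and 14 bases in Slc25a5. Of the 47 members, 36 were in the promoter table, with 46 windows. The cAMP response element was in 2 of these 46 windows and in 1.55% of all 32851 windows of the table. The GC box was in 32 of the 46 and in 32.7% of all windows, and the CCAAT box (CCAAT, either strand) in 21 of the 46 and in 33.8% of all windows. The estrogen-related receptor element TCAAGGTCA was in 0 of the 46 and in 0.387% of all windows. Windows of one gene can overlap, and so are not independent. A match describes the letters of the window and not a bound site.

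The family as a whole made up 0.271 to 0.355% of the normalized counts of a library. Its total was 10628.9 ± 315 normalized counts (mean ± SD, n = 3) for vector and 8522 ± 260 for tSema4B before stimulation. With NE it was 11055 ± 284 in vector cells and 9911 ± 124 in tSema4B cells. The 3 vector libraries were above the 3 tSema4B libraries in both states.

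Levels of different genes were compared per kb of annotated exon, taking the exons of all transcripts of a gene together. The order depends on these lengths, 1.646 kb for Slc25a5, 2.353 kb for Slc25a4 and 5.55 kb for Slc25a3. Not divided by length, Slc25a3 was above both in unstimulated vector cells. Its mean was 2392 normalized counts, against 1540 for Slc25a5 and 1367 for Slc25a4. In unstimulated vector cells the order was headed by Slc25a5, an ADP/ATP carrier, at 936 ± 101 normalized counts per kb, followed by Slc25a4, the ADP/ATP carrier typical of muscle, at 581 ± 10.0 and Slc25a3, the phosphate carrier, at 431 ± 7.46. These 3 genes carried 56.3 to 61.5% of the family's counts per kb in every library. The citrate carrier Slc25a1 came next at 219 ± 17.4 and the glutathione carrier Slc25a39 at 209 ± 10.5, a pair that differed by less than its spread. Slc25a11, the oxoglutarate carrier, followed at 177 ± 17.6 and the peroxisomal carrier Slc25a17 at 133 ± 12.1. In unstimulated tSema4B cells Slc25a4 stood at 643 ± 18.4 and Slc25a5 at 589 ± 75.3 per kb, which differed by less than the spread of Slc25a5, with Slc25a3 at 324 ± 13.1.

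**Figure D1:**
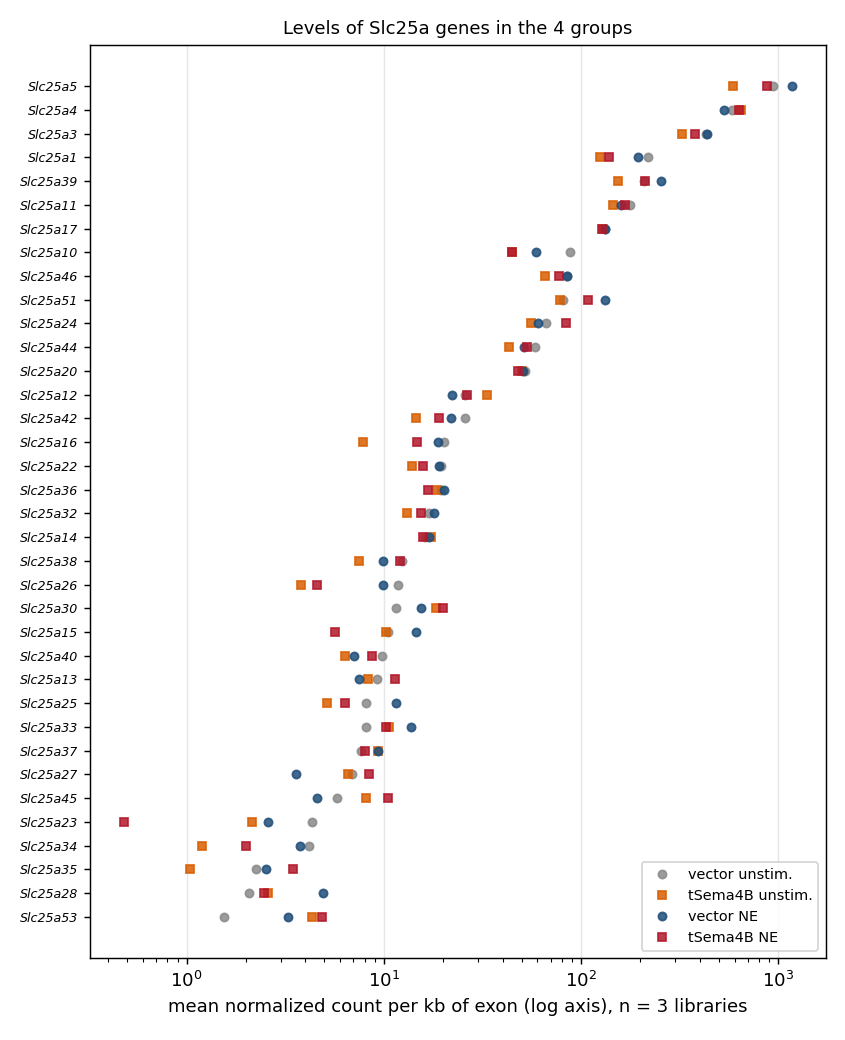
Normalized counts per kb of annotated exon (log axis) for tested Slc25a genes, ordered by level, with 1 point for the mean of the 3 libraries of each group, circles for vector and squares for tSema4B. Slc25a5, Slc25a4 and Slc25a3 lead in every group, and unstimulated tSema4B cells lie below vector cells for Slc25a5 and Slc25a3.

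The first comparison asked what tSema4B cells transcribed differently before adrenergic stimulation. Of the 37 tested members, 9 were lower in unstimulated tSema4B cells (among them Slc25a1, Slc25a3, Slc25a5, Slc25a10, Slc25a16, Slc25a26, Slc25a39 and Slc25a42), where 7.39% of all 11998 tested genes were lower. Slc25a53 alone was higher, where 5.64% of all genes were higher. These calls rest on limma with Benjamini-Hochberg adjustment over all tested genes at an adjusted p of 0.05, and fold changes are on the log2(normalized count + 1) scale. The lower members had log2 fold changes from -0.41 to -1.64. When a log2 change of 1 or more in size was also required, 3 members were lower (among them Slc25a16 and Slc25a26, with 2.71% of all genes) and 1 higher (Slc25a53, with 1.11%). The median log2 fold change was -0.34 over the 37 members and -0.00 over all tested genes, and 30 of the 37 members had a negative value, as did 50.1% of all genes. In 14 members all tSema4B libraries lay below all vector libraries and in 2 all lay above, against 15.1% and 14.2% of all genes.

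**Figure D2:**
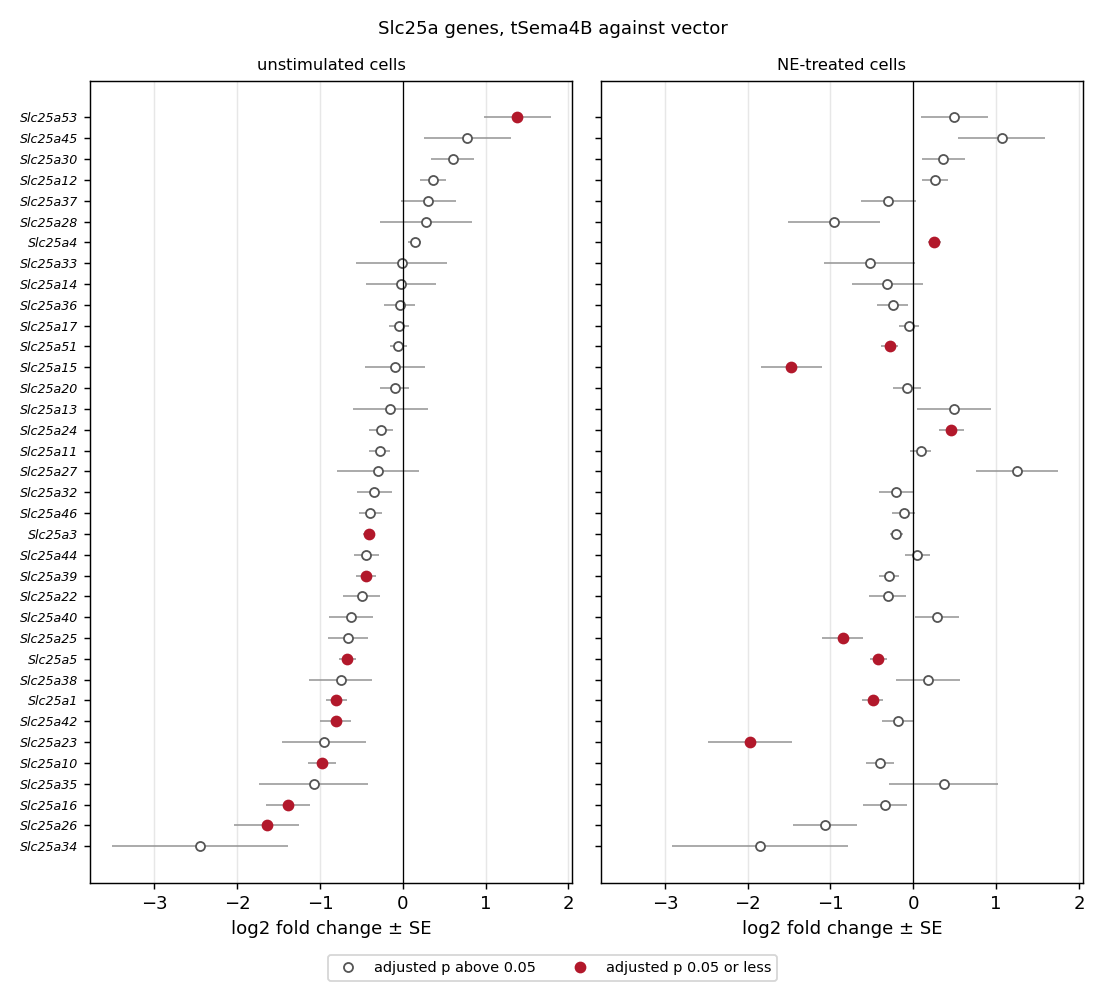
Log2 fold change of tSema4B against vector for tested Slc25a genes, unstimulated (left) and with NE (right), ordered by the unstimulated value. Points give the limma estimate, bars its standard error, and filled points passed an adjusted p of 0.05. Unstimulated, 8 filled points lie left of zero and 1, Slc25a53, to the right.

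Among the carriers that serve ATP synthesis, Slc25a5 and Slc25a3 were downregulated in unstimulated tSema4B cells and Slc25a4 was not. Slc25a5 (chrX:36795651-36798807, GRCm38) stood at 1729.9, 1463 and 1427 normalized counts in vector libraries 1, 2 and 3 and at 1113, 893 and 905 in tSema4B libraries. All tSema4B libraries were below all vector libraries, and the log2 fold change was -0.67 ± 0.10 (SE, limma adjusted p = 5.01e-05). Slc25a3 (chr10:91116574-91124059), which brings phosphate into the matrix, read 2436, 2385 and 2354 in vector and 1884, 1749.5 and 1769 in tSema4B libraries, again with no overlap (log2 fold change -0.41 ± 0.08, limma adjusted p = 5.97e-04). Slc25a4 (chr8:46206797-46211284) read 1359, 1349 and 1394 in vector and 1486, 1491 and 1563 in tSema4B libraries. Its groups did not overlap either, with tSema4B the higher, but the difference did not pass (0.15 ± 0.08, limma adjusted p = 0.249, 95% interval -0.02 to 0.31). Slc25a4 and Slc25a5 are close paralogs and ADP/ATP carriers have processed pseudogenes, and how reads mapping to several places were counted is not given in the sources used here, so the split between such genes is uncertain.

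The same paralogs were set against each other within each library, a ratio chosen after its values were seen. Slc25a4 per kb over Slc25a5 per kb was 0.549, 0.645 and 0.684 in unstimulated vector libraries and 0.934, 1.17 and 1.21 in unstimulated tSema4B libraries. With NE it was 0.441, 0.50 and 0.417 in vector and 0.787, 0.670 and 0.713 in tSema4B libraries. The tSema4B ratios were above the vector ratios in both states, and the ratios with NE were below those without it in both lines. The mean ratio was 0.626 ± 0.0691 and 1.10 ± 0.148 unstimulated, and 0.453 ± 0.0427 and 0.723 ± 0.0595 with NE (SD, n = 3). These are descriptions. An exact two-sided permutation test gave p = 0.1 in each of the 4 comparisons. That is the smallest value 3 against 3 libraries allow, so the test decides nothing.

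**Figure D3:**
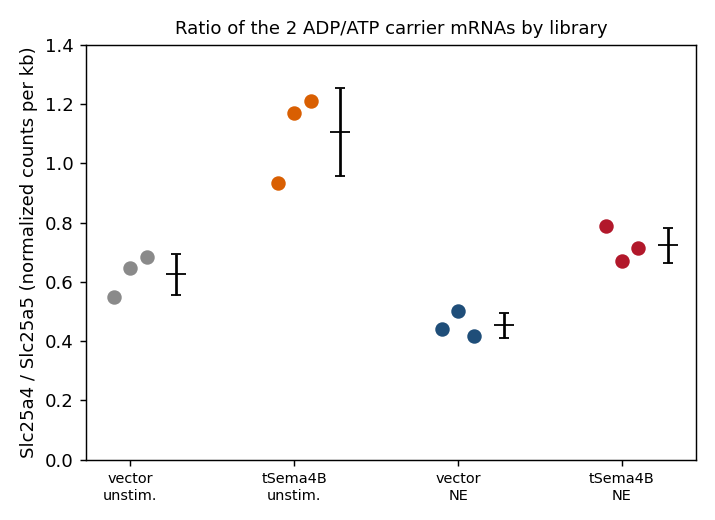
Ratio of Slc25a4 to Slc25a5, both in normalized counts per kb of exon, with 1 point per library and the mean ± SD of each of the 4 groups beside its points. Unstimulated tSema4B libraries lie between 0.934 and 1.21, above the unstimulated vector libraries at 0.549 to 0.684.

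Of the 3 tested carriers of di- and tricarboxylic acids, 2 were lower in unstimulated tSema4B cells, where 7.39% of all genes were lower. Slc25a1 (chr16:17925223-17928219) exports citrate, the carbon source of cytosolic fatty acid synthesis. It read 516, 457 and 445 normalized counts in vector and 249, 261 and 303 in tSema4B libraries (log2 fold change -0.80 ± 0.13, limma adjusted p = 1.01e-04). Slc25a10 (chr11:120491840-120499187) exchanges malate and succinate for phosphate. It read 329, 330.4 and 246 in vector and 129, 142 and 190.3 in tSema4B libraries (-0.98 ± 0.17, limma adjusted p = 2.94e-04). Neither gene had overlapping groups. Slc25a11 (chr11:70644196-70647479), a component of the malate-aspartate shuttle, read 417, 345 and 365 in vector and 335, 283 and 309 in tSema4B libraries. These did not overlap, yet the difference did not pass (-0.28 ± 0.13, limma adjusted p = 0.174).

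Carriers of coenzymes, vitamins, methyl donor and glutathione had 5 lower members of 9 tested, where 7.39% of all genes were lower. The median log2 fold change of the 9 was -0.63. Slc25a16 (chr10:62920633-62946498), linked to mitochondrial coenzyme A, read 95.6, 95.9 and 99.1 normalized counts in vector and 42.9, 24.8 and 45.2 in tSema4B libraries (-1.39 ± 0.26, limma adjusted p = 8.09e-04). Slc25a26 (chr6:94500331-94604672), the carrier of S-adenosylmethionine, read 73.8, 41.2 and 55.5 against 9.53, 23.2 and 21.9 (-1.64 ± 0.39, limma adjusted p = 0.00569). In both genes all tSema4B libraries were below all vector libraries. Slc25a42, a coenzyme A carrier, fell by 0.81 on the log2 scale (SE 0.19, limma adjusted p = 0.00473) and Slc25a39 by 0.44 (SE 0.12, limma adjusted p = 0.0152). The Slc25a39 call was lost without vector library 1 (limma adjusted p = 0.0751) or tSema4B library 3 (0.0706).

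Slc25a53 (chrX:136981116-137038302), whose substrate is less settled, was the one member that passed as higher. It read 8.69, 14.3 and 14.2 normalized counts in vector and 47.7, 32.5 and 23.3 in tSema4B libraries, with no overlap (log2 fold change 1.38 ± 0.40, limma adjusted p = 0.0256). At these low levels the call was lost without vector library 1 (limma adjusted p = 0.113), tSema4B library 1 (0.122) or tSema4B library 2 (0.0567), and with no filter on low values (0.0693).

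The other groups of carriers had no called member in unstimulated cells. None of the 3 tested ATP-Mg/phosphate carriers passed. Of these, Slc25a25 read 70.6, 61.4 and 59.9 normalized counts in vector and 46.5, 43.3 and 31.5 in tSema4B libraries (-0.66 ± 0.24, limma adjusted p = 0.0782), and Slc25a23 read 24.98, 21.02 and 22.9 against 9.53, 12.4 and 12.3 (-0.95 ± 0.51, limma adjusted p = 0.242), both with no overlap. Rescaled on nuclear genes, Slc25a25 passed (limma adjusted p = 0.0419). No call was made either for the 3 uncoupling protein-like carriers, the 3 aspartate and glutamate carriers, the 4 carriers of carnitine and other amino acids, the 2 pyrimidine nucleotide carriers or the 2 iron carriers. Slc25a20 (chr9:108662088-108684641), which brings acylcarnitines in for fatty acid oxidation, read 242, 279 and 234 in vector and 197, 196 and 333 in tSema4B libraries, which overlapped. Slc25a44 (chr3:88410498-88425139), the branched-chain amino acid carrier of brown fat mitochondria, read 192, 249 and 188 against 175, 139 and 146. Its groups did not overlap and its log2 fold change was -0.44 ± 0.15 (limma adjusted p = 0.0590), a difference that passed without tSema4B library 1 (0.0394), with a filter of 50 (0.0485) and rescaled on nuclear genes (0.0227).

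**Figure D4:**
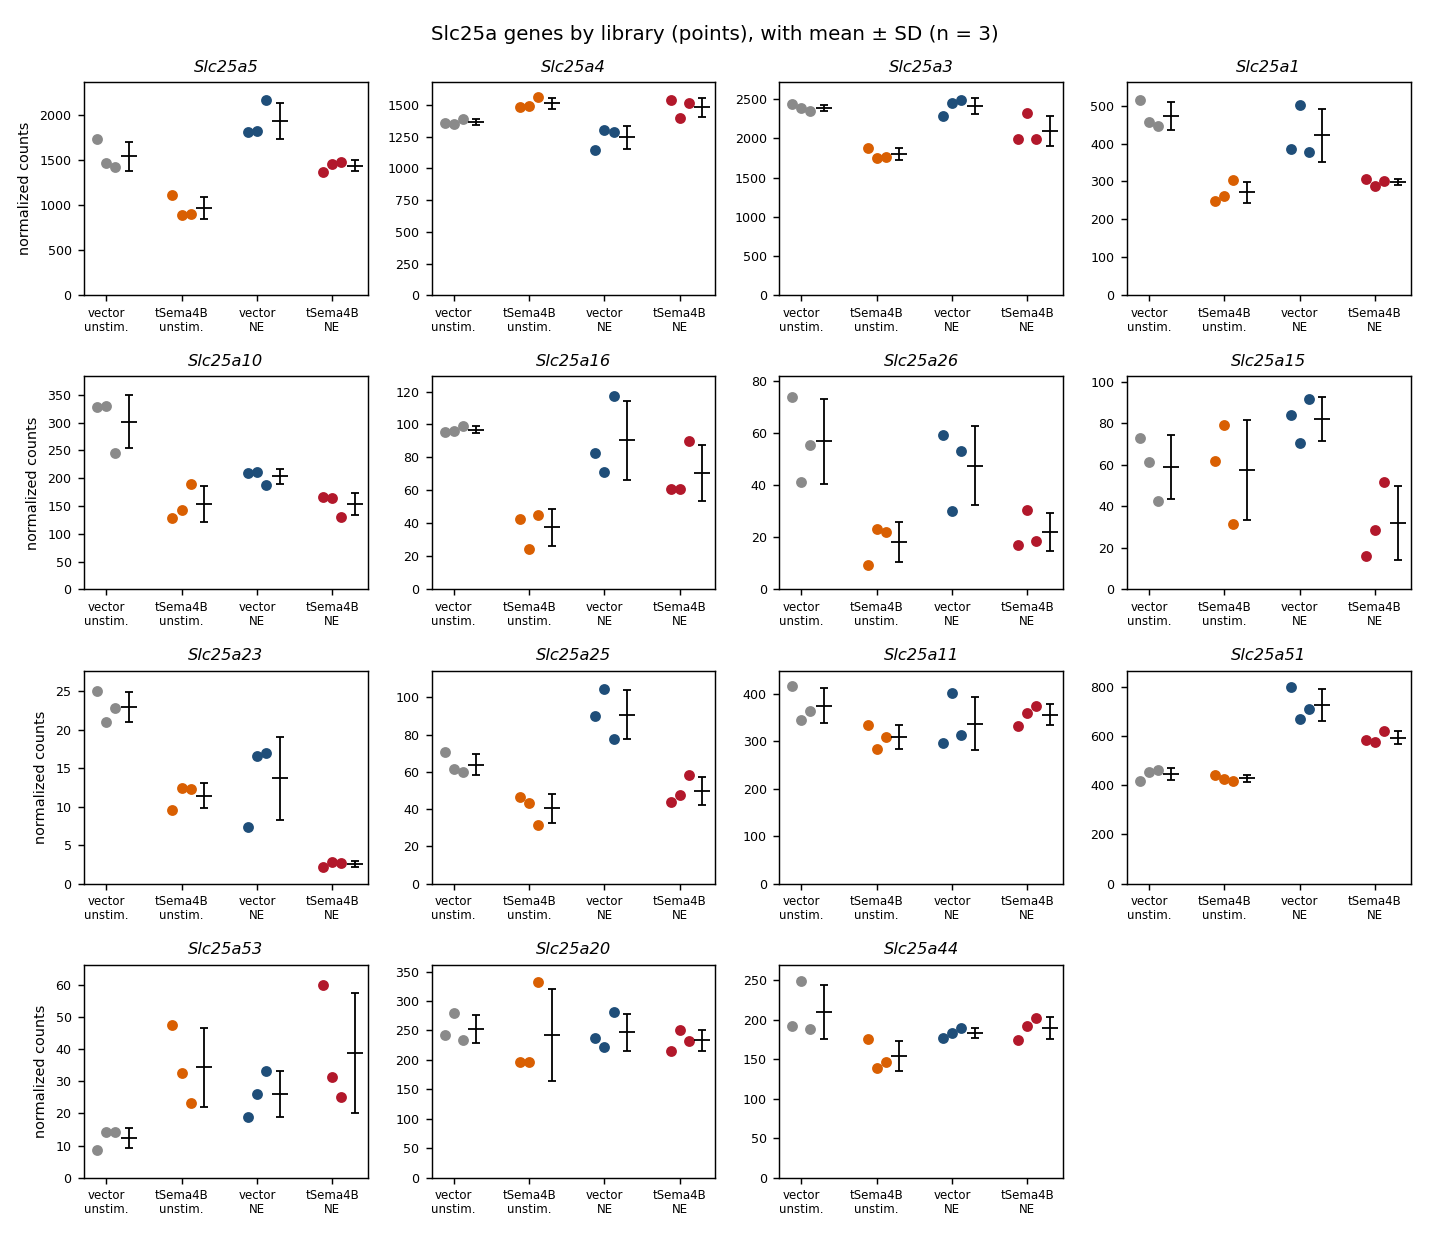
Normalized counts of the Slc25a genes described by library in each of the 12 libraries, with the 4 groups side by side, the mean ± SD beside the points and a linear axis from 0 in each panel. Slc25a1 and Slc25a5 are lower in tSema4B than in vector libraries in both states, and Slc25a51 is higher with NE in both lines.

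The second comparison asked how the lines differed during NE stimulation. Of the 37 members, 7 were lower in tSema4B cells (among them Slc25a1, Slc25a5, Slc25a15, Slc25a23, Slc25a25 and Slc25a51), where 11.2% of all tested genes were lower, and 2 were higher (Slc25a4 and Slc25a24), where 9.79% were higher. Past a log2 fold change of 1 in size as well, Slc25a15 and Slc25a23 were lower (3.73% of all genes) and 0 members were higher (2.03%). The median was -0.21 over the members and -0.01 over all tested genes, with 24 of the 37 members below zero, as were 51.0% of all genes. In 9 members all tSema4B libraries were below all vector libraries and in 5 all were above, against 19.8% and 17.9% of all genes. With all genes rescaled to the same total, 6 members were lower and 2 higher, and among all genes 8.58% were lower and 13.8% higher. The lower calls in the unstimulated and the NE comparison, which have no library in common, shared 3 members (among them Slc25a1 and Slc25a5), 33.3% of the first list and 42.9% of the second, and 0 members were called in opposite directions. Over all tested genes the shared lower calls numbered 591, 66.6% of the first list and 44.0% of the second, and 1 gene was called in opposite directions.

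With NE, Slc25a5 read 1812, 1821 and 2163 normalized counts in vector and 1367, 1459 and 1484 in tSema4B libraries (log2 fold change -0.42 ± 0.10, limma adjusted p = 0.00388). Slc25a4 read 1143, 1302 and 1289.8 in vector and 1539, 1397 and 1513 in tSema4B libraries (0.25 ± 0.08, limma adjusted p = 0.0245). The 2 ADP/ATP carriers thus passed in opposite directions, each with no overlap. The Slc25a4 call was lost without vector library 1 (limma adjusted p = 0.138), tSema4B library 1 (0.0752) or tSema4B library 3 (0.0715). It was also lost with no filter on low values (limma adjusted p = 0.0592) and when libraries were rescaled on their nuclear genes (0.0716). Slc25a3 read 2292, 2455 and 2496 in vector and 1989, 2321 and 1987 in tSema4B libraries, which overlapped, and did not pass (-0.20 ± 0.08, limma adjusted p = 0.0575). It passed without tSema4B library 2 (limma adjusted p = 0.0169), with a filter of 50 (0.0497), rescaled on nuclear genes (0.0219) and with DESeq2 (adjusted p = 0.0371).

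Slc25a1 read 386, 503 and 378 normalized counts in vector and 306, 289 and 299.9 in tSema4B libraries with NE (-0.49 ± 0.13, limma adjusted p = 0.00795). Its groups did not overlap, but the call was lost without vector library 2 (limma adjusted p = 0.0760). Slc25a10 read 210.3, 212 and 188 against 166, 165 and 131, which did not overlap and did not pass (-0.41 ± 0.17, limma adjusted p = 0.0924, or 0.0488 with thinned reads). Slc25a11 read 296, 401 and 314 against 331, 361 and 375, with overlap (0.09, limma adjusted p = 0.685). Slc25a16 read 82.6, 71.1 and 117 in vector and 61.1, 60.6 and 89.8 in tSema4B libraries, with overlap (-0.35, limma adjusted p = 0.389). The carrier of S-adenosylmethionine, Slc25a26, read 59.1, 30.2 and 53.0 against 17.2, 30.3 and 18.5, with a slight overlap (-1.06 ± 0.39, limma adjusted p = 0.0543), and passed without vector library 2 (0.0362) or tSema4B library 2 (0.0366). It also passed with a pseudocount of 10 (limma adjusted p = 0.0404), rescaled on nuclear genes (0.0435), with only the libraries compared (0.0446), with edgeR (adjusted p = 0.0335) and with DESeq2 (adjusted p = 0.0305). Slc25a39, whose groups overlapped, did not pass (-0.29, limma adjusted p = 0.0909), though it did without tSema4B library 1 (0.00926) and rescaled on nuclear genes (0.0495).

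Of the 3 tested ATP-Mg/phosphate carriers, which adjust the matrix adenine nucleotide pool in response to calcium, 2 were lower with NE and 1, Slc25a24, was higher, where 11.2% of all genes were lower and 9.79% higher. Slc25a25 (chr2:32414487-32451445) read 90.0, 104 and 77.9 normalized counts in vector and 44.0, 47.3 and 58.1 in tSema4B libraries, with no overlap (log2 fold change -0.85 ± 0.24, limma adjusted p = 0.0153). This call was lost without vector library 1 (limma adjusted p = 0.0502) or vector library 2 (0.0860). Slc25a23 (chr17:57043711-57059863) read 7.39, 16.6 and 17.0 against 2.14, 2.84 and 2.64 (-1.97 ± 0.51, limma adjusted p = 0.00734). It rested on few reads, 11, 28 and 26 in vector and 2, 3 and 2 in tSema4B libraries, a ratio of tSema4B to vector of 0.184 with a 95% counting interval of 0.0714 to 0.402. With a pseudocount of 10 its log2 fold change was -0.89 (limma adjusted p = 0.0164). Slc25a24 rose by 0.46 on the log2 scale (SE 0.15, limma adjusted p = 0.0313). Its call was lost without any one of the 3 vector libraries, tSema4B library 2 or tSema4B library 3 (limma adjusted p = 0.0549 to 0.125), with no filter (0.0514) and rescaled on nuclear genes (0.0503).

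Slc25a15 (chr8:22375551-22398597), the ornithine carrier, read 84.0, 70.5 and 91.7 normalized counts in vector and 16.1, 28.4 and 51.5 in tSema4B libraries with NE, with no overlap (-1.47 ± 0.36, limma adjusted p = 0.00589). Unstimulated, it read 72.8, 61.4 and 42.5 against 62.0, 78.9 and 31.5, with overlap (-0.10, limma adjusted p = 0.905). Slc25a51 (chr4:45395923-45408766), which brings NAD into the matrix, read 800.2, 670.3 and 712 in vector and 586, 577 and 624 in tSema4B libraries with NE (-0.29 ± 0.10, limma adjusted p = 0.0448). Its groups did not overlap, but the call was lost without vector library 1, vector library 3 or any one of the 3 tSema4B libraries (limma adjusted p = 0.0544 to 0.213). It was also lost with no filter (limma adjusted p = 0.0734), rescaled to the same total (0.185), with quantile normalization (0.0954), with only the libraries compared (0.0540), with the replicate block (0.0596) and with thinned reads (0.0967), 11 of 18 alternatives in all. Slc25a53 read 18.8, 26.1 and 33.4 against 60.1, 31.2 and 25.1, with overlap (0.49, limma adjusted p = 0.427). Slc25a20 read 238, 221 and 281 against 216, 251 and 233 and Slc25a44 177, 184 and 189 against 175, 192 and 202, and neither gene differed beyond its spread.

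The third comparison asked what NE changed in each line. Markers moved with NE. By limma, the preadipocyte markers Cd34, Col1a1, Dlk1 and Pdgfrb were lower and Ly6a was higher with NE in both lines. The adipocyte marker Fabp4 and the macrophage marker Csf1r were also higher in both lines, Csf1r from 1.37 to 11.5 mean normalized counts in vector and from 1.31 to 15.8 in tSema4B cells. Of the brown adipocyte markers, Ucp1 was higher with NE in both lines (limma adjusted p = 3.79e-08 in vector and 8.46e-10 in tSema4B cells) and Elovl3 in tSema4B cells (2.03, limma adjusted p = 0.00376), while in vector cells Elovl3 did not pass (0.108). In vector cells Plin1 and Pparg were lower, and in tSema4B cells Cidec and Lpl were higher. The part of these markers in the NE results was not tested. In vector cells, Slc25a5 and Slc25a51 of the 37 members were higher with NE, where 6.82% of all tested genes were higher, and Slc25a10 was lower, where 4.78% were lower. No member passed with a log2 change of 1 or more in size as well, against 1.66% of all genes higher and 0.975% lower. In 7 members all NE libraries lay above all unstimulated libraries and in 4 all lay below, against 17.6% and 15.7% of all genes. The median was -0.03 over the members and -0.02 over all genes. Slc25a51 moved from 419, 453 and 465 normalized counts to 800.2, 670.3 and 712 with NE, with no overlap (log2 fold change 0.70 ± 0.10, limma adjusted p = 5.75e-05). Slc25a5 moved from 1729.9, 1463 and 1427 to 1812, 1821 and 2163, which do not overlap (0.33 ± 0.10, limma adjusted p = 0.0341). That call was lost without unstimulated library 2 (limma adjusted p = 0.131), unstimulated library 3 (0.145) or NE library 3 (0.211), and with no filter (0.0926), rescaled to the same total (0.0734) or with quantile normalization (0.110). Slc25a10 moved from 329, 330.4 and 246 to 210.3, 212 and 188 (-0.56 ± 0.17, limma adjusted p = 0.0336), and was lost without unstimulated library 1 or 2 or any one NE library (limma adjusted p = 0.0702 to 0.142), with no filter (0.0621) and with thinned reads (0.0646). Slc25a25, the member with a cAMP response element shown above, read 70.6, 61.4 and 59.9 unstimulated and 90.0, 104 and 77.9 with NE. These did not overlap, yet the difference did not pass (0.49 ± 0.24, limma adjusted p = 0.226). Slc25a36, the other member with that motif, had a log2 fold change of 0.06 (limma adjusted p = 0.904). In tSema4B cells neither passed and both overlapped (Slc25a25 0.30, limma adjusted p = 0.539, and Slc25a36 -0.16, 0.712).

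**Figure D5:**
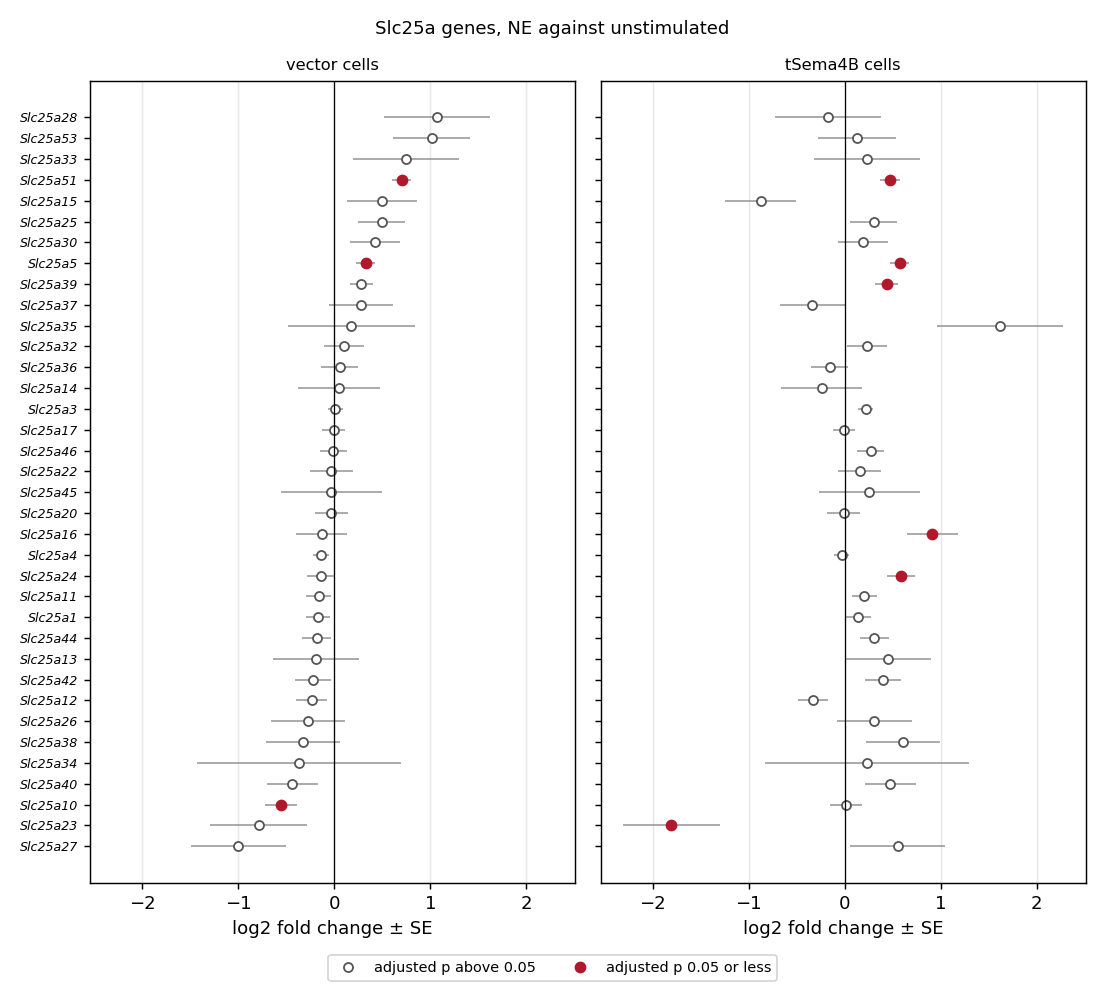
Log2 fold change of NE against unstimulated for tested Slc25a genes in vector (left) and in tSema4B cells (right), ordered by the value in vector cells. Points give the limma estimate, bars its standard error, and filled points passed an adjusted p of 0.05. Slc25a5 and Slc25a51 are filled to the right of zero in both lines.

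In tSema4B cells 5 members were higher with NE (Slc25a5, Slc25a16, Slc25a24, Slc25a39 and Slc25a51), where 3.68% of all tested genes were higher, and Slc25a23 was lower, where 2.58% were lower. The median was 0.23 over the members and -0.00 over all genes, with 10 of the 37 members below zero, as were 50.5% of all genes. Slc25a23 alone also passed a log2 change of 1 in size, against 0.758% of all genes lower and 1.31% higher. In 7 members all NE libraries lay above all unstimulated libraries and in 1 all lay below, against 11.0% and 9.64% of all genes. Slc25a5 moved from 1113, 893 and 905 normalized counts to 1367, 1459 and 1484 (log2 fold change 0.57 ± 0.10, limma adjusted p = 7.24e-04). Slc25a51 moved from 445, 427 and 416 to 586, 577 and 624 (0.47 ± 0.10, limma adjusted p = 0.00495). Neither gene had overlapping groups. Slc25a3 moved from 1884, 1749.5 and 1769 to 1989, 2321 and 1987, which did not overlap and did not pass (0.22, limma adjusted p = 0.0939).

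Slc25a16 moved from 42.9, 24.8 and 45.2 normalized counts to 61.1, 60.6 and 89.8 in tSema4B cells, with no overlap (0.91 ± 0.26, limma adjusted p = 0.0411). The call was lost without unstimulated library 2 (limma adjusted p = 0.172), NE library 2 (0.0532) or NE library 3 (0.160). It was also lost with no filter (limma adjusted p = 0.0779), with edgeR (adjusted p = 0.0651), with only the libraries compared (limma, 0.180) and with thinned reads (0.0526). Slc25a24 rose by 0.59 (SE 0.15, limma adjusted p = 0.0192) and Slc25a39 by 0.44 (SE 0.12, limma adjusted p = 0.0306). The first was lost without unstimulated library 1 or NE library 2 or 3 (limma adjusted p = 0.0707 to 0.0972) and the second without unstimulated library 2 or 3 or NE library 1 (0.0743 to 0.159). With only the libraries compared both were lost (limma adjusted p = 0.0845 for Slc25a24 and 0.131 for Slc25a39), and Slc25a39 also with no filter (0.0686) and with thinned reads (0.0536). In vector cells Slc25a39 had no overlap with NE either, but did not pass (0.28, limma adjusted p = 0.147). There it passed with only the libraries compared (limma adjusted p = 0.0372). Slc25a23 moved from 9.53, 12.4 and 12.3 to 2.14, 2.84 and 2.64 (-1.81 ± 0.51, limma adjusted p = 0.0339), on 8, 8 and 9 reads against 2, 3 and 2. The read ratio was 0.226 with a 95% counting interval of 0.0825 to 0.537, and the call was lost without any one of the 6 libraries compared (limma adjusted p = 0.0540 to 0.0826). It was also lost with a pseudocount of 10, where the log2 fold change was -0.77 (limma adjusted p = 0.0812), with no filter (0.114), with quantile normalization (0.0725), with only the libraries compared (0.184), with edgeR (adjusted p = 0.0588) and with DESeq2 (adjusted p = 0.0584). Slc25a15, whose groups overlapped, did not pass (-0.88, limma adjusted p = 0.172), though it did without NE library 3 (0.0407).

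Whether the response to NE itself differed between the lines was tested by the interaction. By limma, 0 of the 37 members passed, where 0.0250% of all genes passed as higher and 0% as lower, and 0 members were called by edgeR (0.0250% of all genes higher and 0.00833% lower) and by DESeq2 (0.322% higher and 0.649% lower). At an unadjusted p under 0.05 there were 8 members (Slc25a10, Slc25a15, Slc25a16, Slc25a24, Slc25a27, Slc25a40, Slc25a42 and Slc25a44), where 10.2% of all genes lay. The median interaction was 0.20 over the members and 0.01 over all genes. Slc25a16 had an interaction of 1.04 ± 0.37 (limma unadjusted p = 0.0106, adjusted p = 0.320) and Slc25a24 one of 0.72 ± 0.21 (limma unadjusted p = 0.00242, adjusted p = 0.213). Slc25a15 had the opposite sign, at -1.37 ± 0.52 (limma unadjusted p = 0.0143, adjusted p = 0.342). No member's response to NE was therefore shown to differ between vector and tSema4B cells.

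The proteins that place carriers in the membrane were followed as context. Of 12 tested genes of the carrier import route, 1 was lower in unstimulated tSema4B cells, the outer membrane receptor Tomm20 (-0.62, limma adjusted p = 0.00794), and 9 were lower with NE, with a median log2 fold change of -0.86. Among all tested genes 7.39% and 11.2% were lower in these comparisons. Tomm20 then had -1.13 (limma adjusted p = 1.37e-05) and the intermembrane chaperone Timm9 -1.51 (limma adjusted p = 7.24e-05). With NE, 7 of the 12 were higher in vector cells (median 0.62, with 6.82% of all genes higher) and 0 in tSema4B cells (median 0.06, with 3.68%), while 0 passed the interaction by limma.

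Subunits of the respiratory chain and ATP synthase work with the carriers. Their nuclear genes were taken by a pattern of symbols, which also admits related genes such as Atp5sl and Cox7a2l. Of 81 tested genes, 41 were lower in unstimulated tSema4B cells (median -0.42, with 7.39% of all genes lower). With NE 60 were lower (median -0.61, with 11.2%). Of 19 tested transporters of other families, 5 were lower in unstimulated tSema4B cells, among them both subunits of the mitochondrial pyruvate carrier, Mpc1 (-1.19, limma adjusted p = 0.00195) and Mpc2 (-0.93, limma adjusted p = 2.32e-04). With NE, 5 were lower and 3 higher, where 11.2% of all genes were lower and 9.79% higher. Of the 4 tested carriers of the same protein family under other symbols, Ucp1, Ucp2 and Mtch2 were lower in tSema4B cells in both states, where 7.39% of all genes were lower unstimulated and 11.2% with NE. Ucp1, which lets protons back into the matrix and so releases heat, read 15.2, 9.25 and 12.0 normalized counts in unstimulated vector libraries and 0 in all 3 unstimulated tSema4B libraries. With NE it read 293, 268 and 268 in vector and 66.5, 61.5 and 60.8 in tSema4B libraries (log2 fold change -2.12 ± 0.36, limma adjusted p = 1.89e-04).

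The 10 members that were not tested had few or no reads. Slc25a21, Slc25a31, Slc25a41, Slc25a48 and Slc25a54 had no read in any library, where 3 reads, the limit that a count of 0 allows, were worth 1.78 to 4.64 normalized counts. Slc25a2, Slc25a18, Slc25a29, Slc25a43 and Slc25a47 had at most 14 reads in a library, and Slc25a47, a carrier typical of liver, was seen in all 12 libraries. Of the 47 members, 14 share exon bases with another annotated gene, 12 of them with one on the opposite strand. The strand setting of the counting is not given in the sources used here, so reads of such pairs cannot be told apart. Among the members named with library values this holds for Slc25a10, Slc25a11, Slc25a23, Slc25a25 and Slc25a26, whose partners lie on the opposite strand, and for Slc25a51, whose partner lies on the same strand.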

How the data were processed

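RNA was amplified as SMART-Seq2 cDNA, prepared with Nextera XT and sequenced single-end on a NextSeq2000. Per the labels and the study's methods, the authors screened reads, aligned them with STAR 2.7.9a to GRCm38, counted them with htseq-count and divided by DESeq2 size factors. The deposited values are thus a normalized signal. Dividing each library by the value of 1 read turned 100% of its non-zero entries into whole numbers (tolerance 0.01), which were used as read counts. Symbols decide which genes are members, but the family and the other lists were chosen for description with earlier results of these data known.

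Groups came from the sample titles. The main test was limma 3.58.1 (R 4.3.3) with a mean-variance trend on log2(normalized count + 1), in 1 model of the 4 groups, over 11998 genes with at least 10 normalized counts in 3 libraries. P-values were Benjamini-Hochberg adjusted over all of them, for 4 comparisons of groups and their interaction. Count tests on the recovered reads used edgeR 4.0.16 and DESeq2 1.42.0. Other pseudocounts, filters and scalings, a replicate block, leaving out each library and reads thinned to a common depth (added after seeing that tSema4B libraries were shallower) were tried. Lengths and positions are from GENCODE M21 (GRCm38), which matched 47 members, and promoters from RefSeq. Library values are given for members past adjusted p 0.05 and a log2 fold change of 1 in any comparison of 2 groups and for 10 members chosen by function. Other members past adjusted p 0.05 are named with their fold change. Counts and medians are over all tested members, but 1 member is not reported here by name or in the figures.

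Replicate libraries differed by more than sampling noise (chi-square per degree of freedom 3.56 to 5.79). On simulated counts for tSema4B against vector, unstimulated, 11798 of 11998 genes were left unchanged. There limma recovered 19.4% of log2 changes of 0.5, 72.2% of 1 and 80.3% of 1.5. In the data 887 genes were called lower and 677 higher in this comparison, so these rates may not carry over. Counting intervals and floors cover counting error only.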

Additional observations from a re-analysis of the deposited data

How the results depend on the processing

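For unstimulated tSema4B against vector, 8 to 12 members were lower over the alternatives, while the share of all genes called lower ran from 3.37% with no filter to 10.3% rescaled on nuclear genes. The higher count was 0 with no filter on low values and 0 to 2 with 1 library left out. It was also 0 with a filter of 50, under which Slc25a53 was not tested. The median was -0.39 with the filter of 50, -0.43 rescaled on nuclear genes, -0.41 with thinned reads and -0.43 to -0.30 with 1 library left out. For tSema4B against vector with NE, the lower count was 4 to 8 with 1 library left out, the 4 without vector library 1. The higher count was 0 with no filter, 0 rescaled on nuclear genes and 0 to 1 with 1 library left out. The median was -0.25 with the filter of 50, -0.12 at the same total, -0.26 on nuclear genes and -0.23 to -0.14 with 1 library left out. For NE in vector cells, 1 member was higher with no filter, at the same total and with quantile scaling, and 1 to 2 with 1 library left out. With only the libraries compared, Slc25a39 newly passed as higher (0.28, limma adjusted p = 0.0372). The lower count was 0 with no filter and with thinned reads and 0 to 1 with 1 library left out, and the median was -0.076 at the same total, -0.15 thinned and -0.076 to 0.017 with 1 library left out. For NE in tSema4B cells, 3 members were higher with no filter, 2 with only the libraries compared, 3 thinned and 3 to 5 with 1 library left out. The lower count was 0 with a pseudocount of 10, no filter, a filter of 50, quantile scaling, edgeR, DESeq2 and only the libraries compared, and 0 to 1 with 1 library left out, with a median of 0.18 to 0.28. The filter of 50 left Slc25a23 untested. The median interaction was 0.27 at the same total, 0.33 thinned and 0.080 to 0.25 with 1 library left out, and no alternative called a member. The cause of these shifts was not tested.

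Rescaled on nuclear genes, 12 members were lower and 1 higher unstimulated (all genes 10.3% and 3.96%), and 10 and 0 with NE (13.1% and 8.08%). Of 1795 values of named members under alternatives, 1699 kept their side of the threshold, 76 no longer passed and 20 newly passed. The sign changed in 35 of them, all with a main value that had not passed, and in 0 with a main value that had. No filter tested 42 members and a filter of 50 tested 27. The replicate numbers did not pair the libraries (18 correlations of -0.047 to 0.028, 0 over 0.1). With the replicate block, 10 members were lower and 1 higher unstimulated (all genes 7.10% and 5.43%), 6 and 2 with NE (10.8% and 9.55%), 2 were higher and 1 lower with NE in vector cells (6.48% and 4.54%), 5 and 1 in tSema4B cells (3.48% and 2.45%), and 0 passed the interaction (0.0250% higher).

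These counts of members stand beside shares of all genes that moved too. With 1 library left out, 4.86 to 6.90% of all genes were lower and 3.83 to 4.96% higher unstimulated, 8.01 to 10.4% lower and 7.04 to 8.67% higher with NE, 3.69 to 5.10% higher and 2.56 to 3.21% lower for NE in vector cells, and 2.69 to 3.31% higher and 1.73 to 2.42% lower for NE in tSema4B cells. With no filter, 2.24% were higher unstimulated, 4.08% higher with NE, 2.88% higher and 1.75% lower for NE in vector cells, and 1.49% higher and 0.970% lower for NE in tSema4B cells. For the other settings above that changed a count, 8.04% of all genes were higher unstimulated with the filter of 50. For NE in vector cells, 5.73% were higher at the same total and 6.18% with quantile scaling, and 4.28% lower with thinned reads. With only the libraries compared, 9.85% were higher and 7.33% lower there. For NE in tSema4B cells, 1.92% were higher and 1.27% lower with only the libraries compared, 3.12% higher with thinned reads, and the lower share was 2.82% with a pseudocount of 10, 3.56% with the filter of 50, 2.58% with quantile scaling, 2.26% with edgeR and 3.10% with DESeq2.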
